A study of Mus musculus with 7 samples.

Results

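The genes described here are 36 markers of T, NK and B lymphocytes, taken as a named list from the 55423 features of a count table of mouse skin tumours. All 36 were in the table. They were grouped by the role of their products: CD3 and T-cell receptor (TCR) chains, coreceptors and T-cell surface glycoproteins, proximal kinases, costimulatory and inhibitory receptors, regulatory T-cell and IL-2 receptor genes, cytotoxic effectors and NK receptors, B-cell genes, and immunoglobulin and plasma cell genes. Of these, 34 had the 5 reads in at least 1 tumour needed to be tested, within 24433 genes tested in all, and Gzma and Cd79a did not.

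T cells recognise antigen through a TCR that signals through the CD3 chains and the kinases LCK and ZAP70, and receptors such as CD28, ICOS, CTLA4, PD-1, LAG3 and TIGIT raise or lower that signal. Cytotoxic T cells and NK cells kill targets with granzymes and perforin, whereas B cells carry an immunoglobulin receptor coupled to CD79 and become antibody-secreting plasma cells. Normal mouse skin holds resident T cells, among them gamma-delta T cells of the epidermis and dermis and regulatory T cells near hair follicles, and few B cells.

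The comparison asked how these transcripts differed between tumours with and without forced SOX2 expression. The Ivl:BRAFV600E mice carried BRAFV600E and an inducible Cre recombinase driven by the involucrin (Ivl) promoter, which acts in the IVL+ epidermal population. The Ivl:BRAFV600E-SOX2LSL mice carried the same alleles plus SOX2 linked to eGFP at Rosa26, silent until Cre acts. All mice received topical tamoxifen at 7 to 10 weeks of age and the tumours, labelled cutaneous squamous cell carcinoma, were taken at the clinical endpoint. Bulk RNA of 3 whole tumours of each genotype was used, each from a different mouse on a C57BL/6J background, called BRAF tumours 1 to 3 and SOX2 tumours 1 to 3, and values are given in that order. BRAF tumours 1 and 2 came from females that also carried a Rosa26 tdRFP reporter and BRAF tumour 3 from a male, while SOX2 tumours 1 and 2 came from males and SOX2 tumour 3 from a female. Every SOX2 tumour was collected earlier after induction than every BRAF tumour, so time and genotype cannot be told apart.

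Each tumour had from 23565432 to 31152826 counts. Levels are CPM, counts scaled to library size with TMM factors, and a tumour was taken to show a gene when it had more than 3 counts, a level between 0.0839 and 0.143 CPM that covers counting error only. Sox2 lay between 0.238 and 0.716 CPM in the BRAF tumours and between 155 and 182 CPM in the SOX2 tumours, and EGFP had 0 counts in the BRAF tumours and at least 3132 in each SOX2 tumour. Summed levels of 12 keratinocyte genes were 108800, 173000 and 147500 CPM in the BRAF tumours and 19410, 70510 and 60520 CPM in the SOX2 tumours. Epithelial transcripts were thus abundant in all 6 tumours but did not overlap between the groups, with a ratio of mean sums of 0.350. No single gene of the 12 was called by edgeR, 7 had an unadjusted p below 0.05, and DESeq2 called 7 and limma 3. Other tissue content differed too: all 14 tested skeletal muscle genes were higher in the SOX2 tumours and edgeR called 13 of them (summed level 9.17 to 23.95 CPM against 885 to 3760 CPM), and BRAF tumour 2 held 1575 CPM of erythrocyte genes against 37.9 to 96.8 CPM in the other tumours. The most abundant muscle genes were Ttn, Neb and Acta1, and Myl1, Atp2a1 and Tnnt3 were also among the called ones. The part of these differences in the results below was not tested. In bulk RNA, fewer cells of a type and less RNA per cell cannot be told apart.

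Lymphocyte transcripts were scarce in both genotypes. The 36 genes together made up 22.5, 18.4 and 34.5 CPM in the BRAF tumours and 48.4, 30.3 and 50.3 CPM in the SOX2 tumours. The groups overlapped, with BRAF tumour 3 above SOX2 tumour 2. In comparison, 20 pan-leukocyte genes such as Ptprc, which encodes CD45, summed to between 68.7 and 333 CPM. More than 3 counts were seen in all 6 tumours for 16 of the 36 genes, and only Cd4, Cd5, Icos, Tigit, Il2ra and Il2rb exceeded 100 counts in any tumour. Cd79a never exceeded 3 counts. The number of lymphocyte genes above 3 counts was 23, 19 and 24 in the BRAF tumours and 34, 25 and 26 in the SOX2 tumours.

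**Figure D1:**
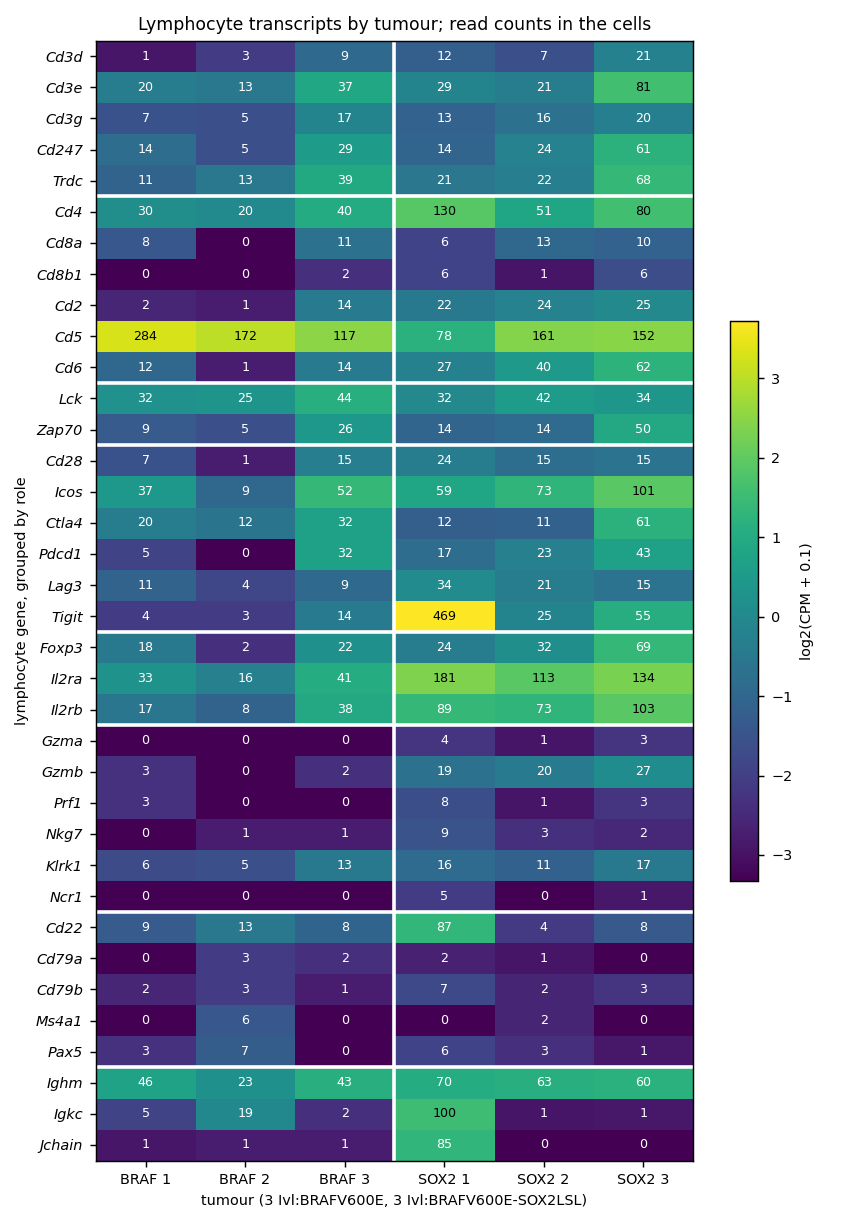
Each row is 1 of the 36 lymphocyte genes, ordered by role, and each column is 1 tumour. Colour gives log2(CPM + 0.1) and the number in each cell is the read count. A few cells stand out, such as 469 Tigit counts in SOX2 tumour 1 and 284 Cd5 counts in BRAF tumour 1, while many B-cell and cytotoxic genes have fewer than 10 counts.

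Of the 34 genes tested, 1 rose in the SOX2 tumours by edgeR's quasi-likelihood test with Benjamini-Hochberg adjustment over all 24433 genes and none fell. That gene, Il2ra, is 2.94% of those tested. Of all genes tested, 3.95% were called, 2.42% higher and 1.52% lower, so the share of higher calls was near the background. At an unadjusted p below 0.05 there were 7 of 34 genes (20.6%) against 25.4% of all genes. All SOX2 tumours lay above all BRAF tumours for 7 of 34 genes (20.6%) against 18.2% of all genes, and all BRAF tumours lay above all SOX2 tumours for 1 of 34 (2.94%) against 16.0%. In either direction the background was 34.2%. The direction was less even: 30 of 34 log2 fold changes (88.2%) were above 0, compared with 52.8% of all genes, and their median was 0.99 against 0.04 over all genes. Cd8b1, Gzmb, Prf1, Nkg7, Ncr1, Cd79b and Jchain reached the 5 reads needed only in SOX2 tumours. The filter thus favoured a fold change above 0 for them, and they are part of this share and median. Ms4a1 reached 5 reads only in a BRAF tumour. Over the 16 genes with more than 3 counts in all 6 tumours the median was 0.56. Ncr1 had 0 counts in the BRAF tumours, and treating those as 3 counts over the group gave a median of 0.83. DESeq2 called Il2ra, Gzmb, Il2rb and Tigit and limma called Il2ra and Gzmb, all higher in SOX2 tumours. DESeq2 called 15.0% of all genes, 8.59% higher and 6.36% lower, and limma called 8.77%, 4.80% higher and 3.97% lower.

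**Figure D2:**
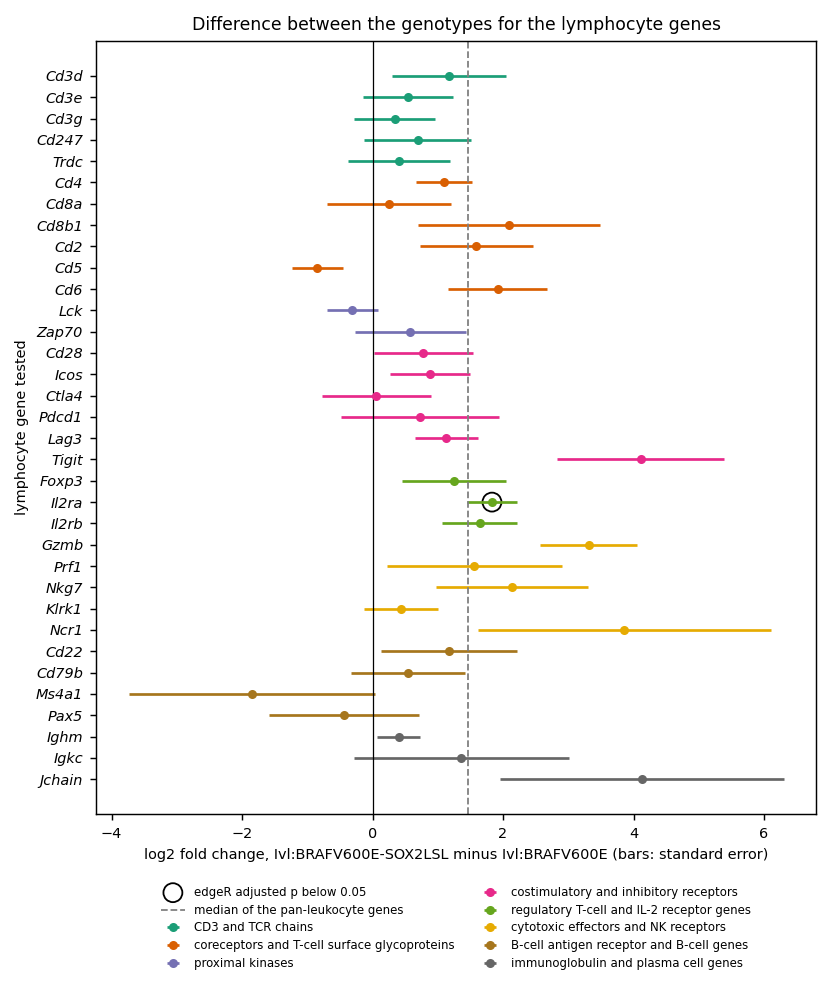
Points are the log2 fold changes of the 34 tested lymphocyte genes, SOX2 tumours minus BRAF tumours, with standard errors as bars, and colours mark the roles. The ring marks Il2ra, the gene with an edgeR adjusted p below 0.05, and the dashed line is the median of the pan-leukocyte genes, 1.46. Genes with few counts, such as Ncr1 and Jchain, have the widest bars.

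The CD3 and TCR chains varied more between tumours of one genotype than between the genotypes, whose mean sums differed 1.47-fold. Their summed level was 1.81, 1.80 and 6.22 CPM in the BRAF tumours and 2.49, 2.92 and 9.06 CPM in the SOX2 tumours. BRAF tumour 3 lay 3.45-fold above the mean of the other BRAF tumours, and SOX2 tumour 3 lay 3.35-fold above the mean of the other SOX2 tumours. All 5 genes of this role, Cd3d, Cd3e, Cd3g, Cd247 (the zeta chain) and Trdc (the constant region of the delta chain), were highest in those tumours within their group.

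Cd3e, an invariant CD3 chain, had 0.682, 0.600 and 1.76 CPM in the BRAF tumours and 0.811, 0.680 and 2.93 CPM in the SOX2 tumours. Trdc had 0.375, 0.600 and 1.85 CPM and then 0.588, 0.713 and 2.46 CPM. In both genes the groups overlapped almost entirely. The log2 fold change of Cd3e was 0.54 (standard error (SE) 0.69, edgeR adjusted p = 0.663) and that of Trdc was 0.41 (SE 0.78, edgeR adjusted p = 0.774). No gene of the role was called by edgeR, DESeq2 or limma, and 0 of 5 had an unadjusted edgeR p below 0.05. Without SOX2 tumour 3, the fold changes of Cd3e, Cd247 and Trdc turned to -0.43, -0.24 and -0.52. Exons of Cd3e, Cd247 and Trdc overlap other annotated genes on the opposite strand (for Cd247, 56.4% of its exon bases lie within Pou2f1), as do those of Foxp3, Cd22 and Pax5. The strand setting of the counting is not given in the sources used here, so the levels of these 6 genes are uncertain.

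Cd3g, Cd3d and Cd3e are neighbours on chromosome 9 of GRCm38, and all 3 were highest in tumour 3 of each group. The 250 bases before their RefSeq start sites (GRCm38.p6) are shown for that reason, and those of Il2ra because it was the gene that passed the test. Cd3g (chr9:44980432-44980681, minus strand) and Cd3d (chr9:44981536-44981785, plus strand) are read away from each other. Cd3e lies at chr9:45009612-45009861 (minus strand) and Il2ra at chr2:11642542-11642791 (plus strand). Capitals mark the letters GGAAG, the core of sites bound by ETS factors, on either strand, where the opposite strand reads as CTTCC.
Cd3g: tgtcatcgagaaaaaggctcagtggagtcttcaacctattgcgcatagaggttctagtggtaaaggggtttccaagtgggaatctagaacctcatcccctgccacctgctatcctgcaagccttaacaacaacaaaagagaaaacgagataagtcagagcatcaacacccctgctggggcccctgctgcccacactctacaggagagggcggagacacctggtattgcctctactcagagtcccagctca
Cd3d: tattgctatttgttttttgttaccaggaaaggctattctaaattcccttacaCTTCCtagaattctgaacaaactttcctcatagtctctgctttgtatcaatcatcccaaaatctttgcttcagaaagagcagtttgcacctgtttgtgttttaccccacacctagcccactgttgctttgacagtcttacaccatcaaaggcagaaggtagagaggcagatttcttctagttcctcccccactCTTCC
Cd3e: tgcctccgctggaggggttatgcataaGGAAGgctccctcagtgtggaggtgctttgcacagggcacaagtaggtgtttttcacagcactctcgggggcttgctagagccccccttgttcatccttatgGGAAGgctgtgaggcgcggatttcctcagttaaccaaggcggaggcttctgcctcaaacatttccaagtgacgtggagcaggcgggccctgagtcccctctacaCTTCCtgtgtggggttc
Il2ra: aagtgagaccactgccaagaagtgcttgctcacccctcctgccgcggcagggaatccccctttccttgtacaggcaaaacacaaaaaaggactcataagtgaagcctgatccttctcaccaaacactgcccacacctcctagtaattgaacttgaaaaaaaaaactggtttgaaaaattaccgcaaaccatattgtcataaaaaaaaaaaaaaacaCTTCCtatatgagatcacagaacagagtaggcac
The letters occur 0 times in Cd3g, 2 times in Cd3d, 3 times in Cd3e and 1 time in Il2ra. They were found in 64.1% of all 32851 promoters of the same length and in 16 of the 23 lymphocyte genes that had an entry (69.6%). Of 3 other motifs searched on both strands, the RUNX core TGTGGT was in 8 of 23 (34.8%) against 14% of all promoters, the E-box CANNTG in 20 of 23 (87%) against 66.2%, and the TCF/LEF core CTTTGA in 2 of 23 (8.7%) against 13.8%. No test was made of these shares, and a match is not a binding site. The RUNX core was not in the 4 sequences shown.

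Among the surface glycoproteins, Cd5 was the gene with a fold change below 0. Cd5 encodes a receptor that dampens TCR signalling, and it had 9.69, 7.95 and 5.56 CPM in the BRAF tumours and 2.18, 5.21 and 5.49 CPM in the SOX2 tumours. It was the lymphocyte gene with the highest level per exon length in the BRAF group, 1.57 RPKM. Every BRAF tumour lay above every SOX2 tumour, though SOX2 tumour 3 nearly reached BRAF tumour 3. The log2 fold change was -0.85 (SE 0.39) and did not pass (edgeR adjusted p = 0.219, 0.143 to 0.467 over the alternatives). The ratio of Cd5 to Cd3e, each per exon length, was 11.8 and 11.0 in BRAF tumours 1 and 2, where Cd3e was low, and 2.62 in BRAF tumour 3. In the SOX2 tumours it was 2.23, 6.35 and 1.55.

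Cd4, the coreceptor of helper T cells that some myeloid cells also carry, had 1.02, 0.924 and 1.90 CPM in the BRAF tumours and 3.64, 1.65 and 2.89 CPM in the SOX2 tumours. SOX2 tumour 2 lay below BRAF tumour 3. The log2 fold change of Cd4 was 1.09 (SE 0.43, edgeR adjusted p = 0.169). Cd8a and Cd8b1 encode the chains of the cytotoxic coreceptor. Cd8a ranged from 0 to 11 counts in the BRAF tumours and from 6 to 13 in the SOX2 tumours, a log2 fold change of 0.25 (SE 0.95). Cd8b1 had 0, 0 and 2 counts and then 6, 1 and 6 counts, and the ratio of the pooled counts was 4.96 with an exact 95% counting interval of 1.12 to 45.3. Such intervals leave out the spread between tumours, and over tumours Cd8b1 did not pass (log2 fold change 2.09, SE 1.39, edgeR adjusted p = 0.379). Per exon length, Cd4 lay above Cd8a by 3.38-fold and 3.28-fold in BRAF tumours 1 and 3 and by 19.5-fold, 3.54-fold and 7.22-fold in the SOX2 tumours, while Cd8a was at 0 in BRAF tumour 2.

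Cd6, a glycoprotein related to Cd5 and its neighbour on chromosome 19, did not share its direction. Cd6 had 0.409, 0.0462 and 0.665 CPM in the BRAF tumours and 0.755, 1.30 and 2.24 CPM in the SOX2 tumours, with no overlap, and a log2 fold change of 1.92 (SE 0.76, edgeR adjusted p = 0.173). Cd2, an adhesion receptor, had a log2 fold change of 1.59 (SE 0.87, edgeR adjusted p = 0.295), and BRAF tumour 3 overlapped the SOX2 tumours. Of the 6 genes of this role, 2 had an unadjusted p below 0.05, and edgeR, DESeq2 and limma called 0 at the adjusted threshold.

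The proximal kinases differed in sign, and both overlapped between the genotypes. Lck, which phosphorylates the CD3 chains, had 1.09, 1.15 and 2.09 CPM in the BRAF tumours and 0.895, 1.36 and 1.23 CPM in the SOX2 tumours. Zap70, recruited to them, had 0.307, 0.231 and 1.24 CPM and then 0.392, 0.453 and 1.81 CPM, highest in tumour 3 of each group as were the CD3 chains. The log2 fold changes were -0.31 for Lck (SE 0.39, edgeR adjusted p = 0.649) and 0.58 for Zap70 (SE 0.85, edgeR adjusted p = 0.702). Neither gene was called by DESeq2 or limma or had an unadjusted p below 0.05.

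Of the costimulatory and inhibitory receptors, Tigit had the largest fold change, and 1 tumour carried most of it. Tigit encodes an inhibitory receptor of T and NK cells that binds CD155, and lies on chromosome 16 (43648867 to 43664146, minus strand). It had 4, 3 and 14 counts in the BRAF tumours and 469, 25 and 55 counts in the SOX2 tumours, equal to 0.136, 0.139 and 0.665 CPM and then 13.1, 0.810 and 1.99 CPM. SOX2 tumour 1 therefore held 85.4% of the Tigit counts of its group, with 37.9% of the scaled depth. It was the highest SOX2 tumour for 9 of the 28 T and NK genes, among them Cd4, Cd28, Lag3 and Il2ra. For others, such as Cd247, Trdc and Cd6, it was the lowest. The log2 fold change was 4.11 (SE 1.28, edgeR adjusted p = 0.121), with 2.17 to 5.23 on leaving out single tumours. DESeq2 called the gene (adjusted p = 0.00113), and over all alternatives the adjusted p reached 0.289.

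Icos, a costimulatory receptor of activated and regulatory T cells, was seen in all 6 tumours. It had 1.26, 0.416 and 2.47 CPM in the BRAF tumours and 1.65, 2.36 and 3.65 CPM in the SOX2 tumours, with BRAF tumour 3 inside the range of the SOX2 tumours (log2 fold change 0.88, SE 0.61, edgeR adjusted p = 0.398). Lag3, an inhibitory receptor that binds MHC class II, did not overlap between the groups, with 0.375, 0.185 and 0.428 CPM against 0.951, 0.680 and 0.542 CPM (log2 fold change 1.13, SE 0.48, edgeR adjusted p = 0.195). Ctla4, which competes with CD28 for its ligands, had a log2 fold change of 0.06 (SE 0.83). Its counts were 20, 12 and 32 and then 12, 11 and 61, so both lower and higher tumours were found in the SOX2 group, and the sign turned under upper-quartile scaling (-0.02). Cd28, the main costimulatory receptor, and Pdcd1, which encodes PD-1, had log2 fold changes of 0.78 (SE 0.76) and 0.73 (SE 1.21), and both overlapped. All 6 genes were highest in BRAF tumour 3 within the BRAF group. edgeR called 0 of the 6, with 2 at an unadjusted p below 0.05, limma called 0 and DESeq2 called Tigit.

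Neither IL-2 receptor chain overlapped between the genotypes. Il2ra (chromosome 2, 11642807 to 11693193, plus strand) encodes CD25, the alpha chain that gives high affinity for IL-2 and is carried by regulatory and activated T cells as well as by some myeloid cells. Il2ra had 33, 16 and 41 counts in the BRAF tumours and 181, 113 and 134 counts in the SOX2 tumours, equal to 1.13, 0.739 and 1.95 CPM and then 5.06, 3.66 and 4.84 CPM. The groups did not overlap, and the lowest SOX2 tumour lay above the highest BRAF tumour. Il2ra rose by a log2 fold change of 1.83 (SE 0.39, edgeR adjusted p = 0.0491). The call was close to the threshold of 0.05: it held in 7 of 15 alternatives, with adjusted p from 0.000259 to 0.190, and was lost when any tumour other than SOX2 tumour 1 was left out, with the fold change between 1.56 and 2.26.

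Il2rb, the signalling beta chain shared with the IL-15 receptor and prominent on NK cells, had 0.580, 0.370 and 1.81 CPM in the BRAF tumours and 2.49, 2.36 and 3.72 CPM in the SOX2 tumours. The groups did not overlap (log2 fold change 1.64, SE 0.58, edgeR adjusted p = 0.137), and DESeq2 called it (adjusted p = 0.0425). Foxp3, the transcription factor of regulatory T cells, had 0.614, 0.0924 and 1.05 CPM and then 0.671, 1.04 and 2.49 CPM. It overlapped between the groups (log2 fold change 1.25, SE 0.80, edgeR adjusted p = 0.366), and its exons overlap Ccdc22, Ppp1r3f and Gm36995 on the opposite strand and Flicr on its own. Relative to Cd3e and per exon length, Il2ra was 1.18, 0.879 and 0.792 in the BRAF tumours and 4.46, 3.84 and 1.18 in the SOX2 tumours. In SOX2 tumour 3, where Cd3e was highest, the ratio was that of BRAF tumour 1. For Foxp3 the same ratio was 0.802, 0.137 and 0.530 and then 0.738, 1.36 and 0.759, with overlap.

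The cytotoxic and NK genes were near the detection limit in the BRAF tumours. Gzmb (chromosome 14, 56258838 to 56262260, minus strand) encodes granzyme B, a protease of cytotoxic granules, and was the gene of this role seen in all SOX2 tumours and in no BRAF tumour. It had 3, 0 and 2 counts in the BRAF tumours and 19, 20 and 27 counts in the SOX2 tumours, equal to 0.102, 0 and 0.0950 CPM and then 0.532, 0.648 and 0.975 CPM. The ratio of the pooled counts was 10.1 with an exact 95% counting interval of 4.11 to 32.1. The fitted log2 fold change was 3.31 (SE 0.75, edgeR adjusted p = 0.055), just short of the threshold. Over the alternatives the adjusted p ran from 0.00423 to 0.172, and 5 of 15 called the gene.

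The remaining killing genes had very few reads. Gzma, granzyme A, had 0 counts in each BRAF tumour and 4, 1 and 3 in the SOX2 tumours. Ncr1, the NK receptor NKp46, had 0 counts in each BRAF tumour and 5, 0 and 1 in the SOX2 tumours. Their means in the SOX2 group, 0.0842 and 0.0587 CPM, lay below the level of 3 counts in any BRAF tumour, 0.102 to 0.143 CPM. No lower bound on their fold difference can therefore be given. Prf1, perforin, had 3, 0 and 0 counts and then 8, 1 and 3, a pooled ratio of 3.06 with a counting interval of 0.824 to 16.9. Nkg7, a granule membrane protein, had 0, 1 and 1 counts and then 9, 3 and 2, a pooled ratio of 5.35 with a counting interval of 1.23 to 48.5, and 64.3% of the SOX2 counts were in SOX2 tumour 1. Over tumours none of the 3 tested passed, with edgeR adjusted p of 0.292 for Nkg7 (log2 fold change 2.14, SE 1.16), 0.497 for Prf1 (1.56, SE 1.34) and 0.342 for Ncr1. These 4 genes were highest in SOX2 tumour 1, and in each of them more than 3 counts were reached in that tumour only. Klrk1, which encodes NKG2D, the stress-ligand receptor of NK and epidermal gamma-delta T cells, was seen in all 6 tumours. It had 0.205, 0.231 and 0.618 CPM in the BRAF tumours and 0.448, 0.356 and 0.614 CPM in the SOX2 tumours, with overlap (log2 fold change 0.44, SE 0.57, edgeR adjusted p = 0.662).

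Of the 5 B-cell genes, Cd79a, Cd79b, Ms4a1 and Pax5 had 7 counts or fewer in every tumour. Cd79a, a signalling chain of the B-cell receptor, had 0, 3 and 2 counts and then 2, 1 and 0. Ms4a1, which encodes CD20, had 0, 6 and 0 counts and then 0, 2 and 0. Pax5, the factor that fixes B-cell identity, had 0.102, 0.323 and 0 CPM in the BRAF tumours and 0.168, 0.0972 and 0.0361 CPM in the SOX2 tumours. Cd79b, the other signalling chain, exceeded 3 counts in SOX2 tumour 1 only, with 2, 3 and 1 counts and then 7, 2 and 3. Cd79a, Ms4a1 and Pax5 were each highest in BRAF tumour 2, at 7 counts or fewer. For Ms4a1 the pooled ratio was 0.255 with a counting interval of 0.0251 to 1.42 (edgeR adjusted p = 0.573), and the fold changes of Pax5 (-0.44, SE 1.15) and Cd79b (0.54, SE 0.87) were smaller than their SEs.

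Some B-cell and plasma cell transcripts were found in 1 SOX2 tumour. Cd22, an inhibitory lectin of B cells, had 9, 13 and 8 counts in the BRAF tumours and 87, 4 and 8 counts in the SOX2 tumours, equal to 0.307, 0.600 and 0.380 CPM and then 2.43, 0.130 and 0.289 CPM. Its log2 fold change of 1.17 (SE 1.04, edgeR adjusted p = 0.518) turned to -1.02 without SOX2 tumour 1. Jchain, which joins IgA and IgM into polymers, had 1 count in each BRAF tumour and 85, 0 and 0 counts in the SOX2 tumours. Igkc, the constant region of the kappa light chain, had 0.171, 0.878 and 0.0950 CPM in the BRAF tumours and 2.80, 0.0324 and 0.0361 CPM in the SOX2 tumours. SOX2 tumour 1 thus held 87.9%, 100% and 98.0% of the counts of its group for Cd22, Jchain and Igkc, and the other SOX2 tumours lay below BRAF tumour 2 in all 3. For Igkc the log2 fold change went from 1.36 (SE 1.65, edgeR adjusted p = 0.646) to -3.29 without SOX2 tumour 1.

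Ighm, the heavy chain of IgM, did not follow this pattern. It had 1.57, 1.06 and 2.04 CPM in the BRAF tumours and 1.96, 2.04 and 2.17 CPM in the SOX2 tumours, within 1.11-fold of each other in the SOX2 group but with BRAF tumour 3 among them (log2 fold change 0.40, SE 0.33, edgeR adjusted p = 0.475). In the 8 B-cell and plasma cell genes edgeR, DESeq2 and limma called 0, and 0 of the 7 tested had an unadjusted edgeR p below 0.05.

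**Figure D3:**
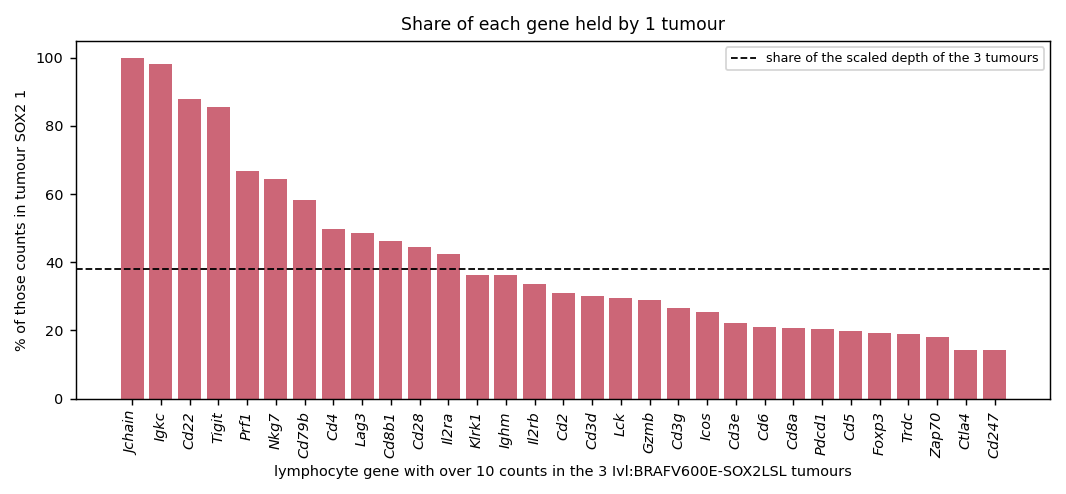
Bars give, for each lymphocyte gene with over 10 counts in the 3 SOX2 tumours, the percentage of those counts in SOX2 tumour 1, and the dashed line is the 37.9% of scaled depth that this tumour made up. Jchain, Igkc, Cd22 and Tigit exceed 75%, whereas Cd247 and Ctla4 lie near 14%.

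The high and low tumours differed between roles. Within the BRAF group, BRAF tumour 3 was highest for 23 of the 28 T and NK genes. Within the SOX2 group, SOX2 tumour 3 was highest for 17 of these 28 genes, SOX2 tumour 1 for 9 and SOX2 tumour 2 for 2. The summed levels of the regulatory T-cell and IL-2 receptor genes were 2.32, 1.2 and 4.80 CPM in the BRAF tumours and 8.22, 7.06 and 11.1 CPM in the SOX2 tumours, with no overlap. The cytotoxic and NK genes also did not overlap, at 0.409, 0.277 and 0.760 CPM against 1.71, 1.17 and 1.91 CPM. The surface glycoproteins, of which Cd5 was the largest, summed to 9.94 ± 1.33 CPM (SD, n = 3) and 9.67 ± 2.30 CPM (SD, n = 3). The proximal kinases came to 2.04 ± 1.12 CPM (SD, n = 3) and 2.04 ± 0.896 CPM (SD, n = 3).

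**Figure D4:**
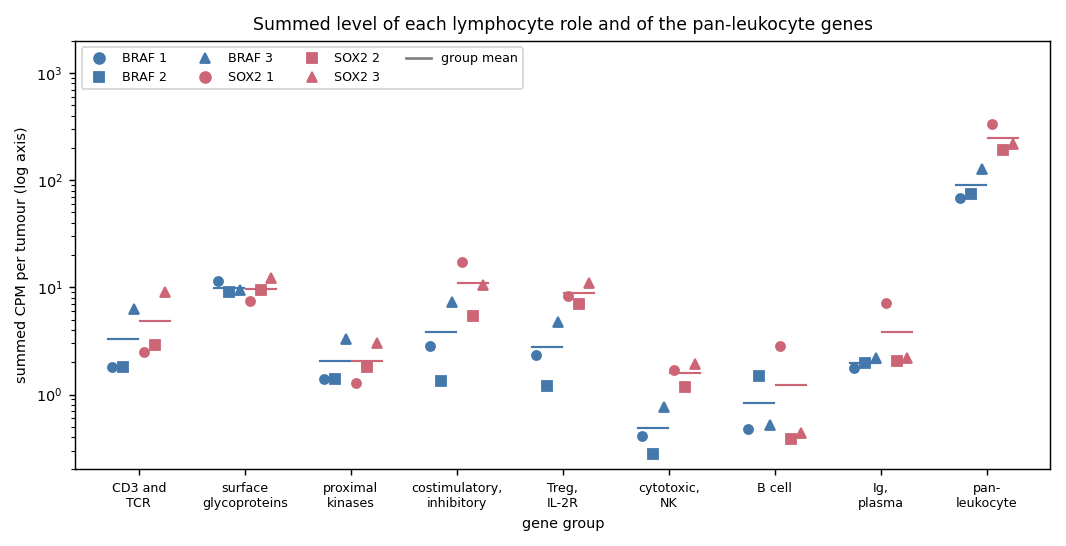
Each point is the summed CPM of 1 role in 1 tumour on a log axis, blue for BRAF and red for SOX2 tumours, with lines at the group means. The regulatory T-cell and IL-2 receptor genes, the cytotoxic and NK genes and the pan-leukocyte genes do not overlap between the groups. The CD3 and TCR chains overlap, with tumour 3 of each group highest.

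Leukocyte transcripts as a whole differed more than the lymphocyte genes did. Of 19 pan-leukocyte genes tested, 6 rose in the SOX2 tumours, with a median log2 fold change of 1.46 against 0.99 for the lymphocyte genes, and all 19 were above 0. The 6 were Ptprc, Spi1, Cd37, Coro1a, Rac2 and Vav1, and Laptm5, Ptprc and Itgb2 were the most abundant. The 20 genes together had 68.7, 74.6 and 128 CPM in the BRAF tumours and 333, 190 and 219 CPM in the SOX2 tumours. SOX2 tumour 1, the highest here, was the lowest SOX2 tumour for the summed CD3 and TCR chains, though not for Cd3d or Cd3e. Macrophage and monocyte genes had a median of 1.94 with 0 of 18 called by edgeR (13 at an unadjusted p below 0.05, 12 called by DESeq2 and 6 by limma), and Lyz2 and Csf1r were among the most abundant.

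Divided by the pan-leukocyte sum, the lymphocyte genes other than the immunoglobulin genes Ighm and Igkc gave 0.302, 0.221 and 0.253 in the BRAF tumours and 0.131, 0.148 and 0.219 in the SOX2 tumours. The groups did not overlap, but BRAF tumour 2 and SOX2 tumour 3 were nearly equal. The T and NK genes alone gave 0.295, 0.201 and 0.249 and then 0.116, 0.146 and 0.217, which overlapped. Without Cd5 and Tigit, a step chosen after their values were seen, they gave 0.152, 0.0923 and 0.200 and then 0.0696, 0.115 and 0.183, with a wider overlap. For the CD3 and TCR chains alone the ratio was 0.0263, 0.0241 and 0.0487 and then 0.00749, 0.0153 and 0.0413, also with overlap. With macrophage and monocyte genes as the denominator the direction turned, from a log2 ratio of -0.64 to 0.55. The groups overlapped with this denominator and with Ptprc alone, where the ratios were 2.05, 1.32 and 1.87 and then 1.01, 0.992 and 1.81.

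**Figure D5:**
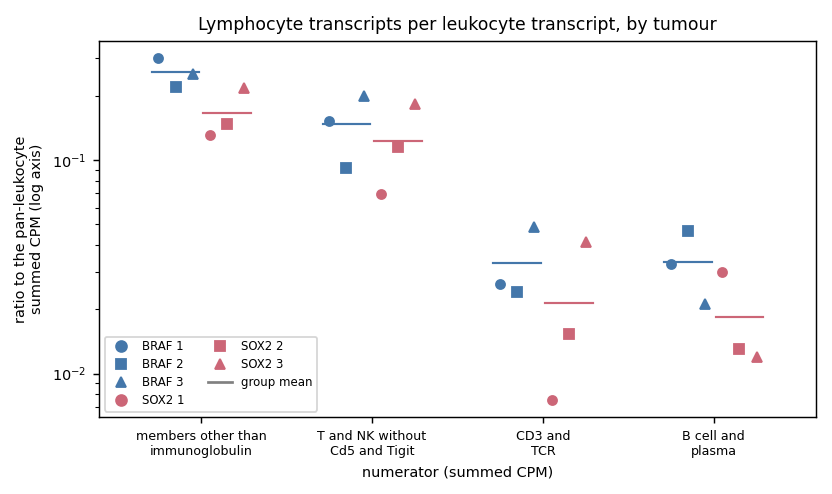
Points give, for each tumour, summed CPM of a lymphocyte group divided by summed CPM of 20 pan-leukocyte genes, on a log axis, and lines are group means. The leftmost group, all lymphocyte genes but Ighm and Igkc, runs from 0.131 to 0.302 and does not overlap between genotypes, while the other 3 groups do.

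Of 85 tested genes in 5 further lymphocyte lists, 4 rose and 1 fell (edgeR), with a median log2 fold change of 0.69. Ptprc and Vav1, which are 2 of the 4, are also in the pan-leukocyte list, and without them 2 of 83 genes rose (2.41%), near the background of 2.42%. None of the 19 tested alpha-beta T-cell genes was called by edgeR or limma, 5 had an unadjusted p below 0.05 and DESeq2 called 2. The TCR constant regions differed in level. Trac, of the alpha chain, had 0.375, 0.0924 and 1.52 CPM in the BRAF tumours and 0.755, 1.10 and 1.34 CPM in the SOX2 tumours, and Trbc1, of the beta chain, had 0.341, 0.139 and 0.570 CPM and then 0.420, 0.227 and 1.16 CPM. Trbc2, its near-identical copy, had 13.4, 19.3 and 17.4 CPM and then 10.6, 28.1 and 23.1 CPM, and per exon length lay between 15.5-fold and 282-fold above Trac. Reads can be split between such copies, so the separate levels of Trbc1 and Trbc2 are uncertain. The source of the excess over Trac was not tested. The highest genes of this list, Bcl11b, Thy1 and Gata3, are also expressed by other cells of the skin, and differed in their values. Bcl11b had a log2 fold change of -0.07 (SE 0.29, edgeR adjusted p = 0.896), with overlap. Thy1 (1.03, SE 0.35, edgeR adjusted p = 0.137) and Gata3 (0.99, SE 0.29, edgeR adjusted p = 0.103) did not overlap, with the SOX2 tumours higher, and each was called in 1 of 15 alternatives.

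Among 20 TCR signalling genes, 3 rose and 1 fell. Nfatc2, a calcium-regulated transcription factor, rose by a log2 fold change of 2.37 (SE 0.23, edgeR adjusted p = 0.00799). Ptprc rose by 1.30 (SE 0.26, edgeR adjusted p = 0.0445) and Vav1, a guanine nucleotide exchange factor of blood cells, by 2.04 (SE 0.35, edgeR adjusted p = 0.0311). Fyn, a kinase related to Lck that many cell types express, fell by 1.14 on the log2 scale (SE 0.24, edgeR adjusted p = 0.0491). Nfatc2 was called in 14 of 15 alternatives (adjusted p up to 0.0874), Vav1 in 10 (up to 0.139), Ptprc in 9 (up to 0.170) and Fyn in 9 (up to 0.159). With single tumours left out the calls held in 5, 2, 1 and 2 of 6 fits, in the same order. The most abundant genes of this list, Dgka, Csk and Plcg1, are not confined to lymphocytes, with mean levels above those of any of the 36 genes.

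In the list of gamma-delta and epidermal T-cell genes edgeR called 0 of 17, with 3 at an unadjusted p below 0.05, and DESeq2 and limma called 2 each. Il17a, a cytokine of dermal gamma-delta T cells, had 1, 1 and 12 counts in the BRAF tumours and 2, 2 and 12 counts in the SOX2 tumours. Tcrg-C1, a gamma-chain constant region, had 4, 1 and 18 counts and then 19, 8 and 31. Both were highest in tumour 3 of each group, where Trdc and the CD3 chains were also highest. The 3 most abundant genes of this list, Sox13, Fcer1g and Cd101, are not specific to these cells.

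Of 14 tested NK and cytotoxic genes, 1 rose. Cd244a, the receptor 2B4 of NK cells and some myeloid cells, had 1.26, 0.785 and 1.57 CPM in the BRAF tumours and 3.78, 3.56 and 3.29 CPM in the SOX2 tumours (log2 fold change 1.55, SE 0.32, edgeR adjusted p = 0.0468). The call held in 8 of 15 alternatives, with adjusted p up to 0.172, and in 1 of the 6 fits without a tumour. SOX2 tumour 1 stood apart here as well. Eomes, a T-box factor of NK and cytotoxic T cells that other tissues also express, had 38, 18 and 2 counts in the BRAF tumours and 892, 34 and 10 counts in the SOX2 tumours. Gzmd and Xcl1, an effector protease and a chemokine of activated NK cells, had 28 and 9 counts in that tumour and 0 in the other 5. Ctsw, a protease of cytotoxic cells, showed no such pattern (log2 fold change -0.11, SE 0.63).

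No gene of 15 tested B-cell and plasma cell genes was called by edgeR or limma, 2 had an unadjusted p below 0.05 and DESeq2 called 1. Igha, the heavy chain of IgA, had 20, 36 and 25 counts in the BRAF tumours and 342, 41 and 16 counts in the SOX2 tumours, high in the same SOX2 tumour as Jchain and Igkc. Ebf1, also a gene of stromal cells, and Cd72, also carried by myeloid cells, were the other abundant genes of the list.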

How the data were processed

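Bulk tumour RNA was sequenced after ribosomal RNA depletion, all tumours in a single batch according to the study. Per the submitters' processing notes, reads were checked with FastQC 0.11.8, trimmed with Trim Galore, aligned to GRCm38 with HISAT2 2.1.0 and counted per gene with featureCounts (Subread 1.6.3). The authors deposited raw counts per gene for the series, not pooled. Columns carry mouse names, which the mouse records of the study tie to a genotype and sex for 6 columns, and 1 further column of values was left unused. The labels list 4 Ivl:BRAFV600E and 3 Ivl:BRAFV600E-SOX2LSL tumours, so 1 tumour of the first group is not analysed here and the test was 3 against 3.

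Genes reaching 5 reads in any tumour were scaled by TMM and compared with edgeR 4.0.16 (robust quasi-likelihood test, R 4.3.3) with Benjamini-Hochberg adjustment over all genes at 0.05, in place of the DESeq2 used by the study. For 1 gene the smallest two-sided p of an exact permutation test is 0.1 at this size. RPKM used exon lengths of GENCODE M21, an annotation other than the one used for counting. Sequences are from RefSeq, and 23 of 36 genes matched. Alternatives were DESeq2 1.42.0, limma 3.58.1, other scalings and filters, sex as a covariate and each tumour left out. Robust estimation was dropped, the 10 genes with the most counts were removed and other denominators were tried after the data were seen. The scripts were tested on simulated data. Python 3.11.15 (pandas 2.3.3, matplotlib 3.10.9) was used for tables and plots.

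The 36 genes and all lists were chosen with earlier results of these data known. All 36 are named. Values per tumour were given for genes with an adjusted p below 0.05, the 2 most abundant genes of a role and genes seen in 1 group, and from the other lists the called genes and the 3 most abundant were named, except items that are not reported here. Cd6, Lag3, Foxp3 and Ctla4, the ratios between genes and Trac, Trbc1, Trbc2, Il17a, Tcrg-C1, Gzmd and Xcl1 were added after their values were seen.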

Additional observations from a re-analysis of the deposited data

How the results depend on the processing

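Over all genes, edgeR called 964, and 3653 with DESeq2, 2142 with limma, 1478 without a filter, 231 with sex as a covariate and 24 to 1817 when each tumour was left out. Among the 36 lymphocyte genes the call was 1, against 4 with DESeq2, 2 with limma, 2 without a filter, 2 with filterByExpr, 0 with upper-quartile scaling, 0 with sex as a covariate, 0 without robust estimation (4.27%, 0.945% and 3.90% of all genes in these last 3, and 6.99% with filterByExpr) and 0 to 2 with a tumour left out. Among the other lymphocyte lists 5 genes were called, against 15 with DESeq2, 10 with limma, 8 without a filter, 1 with sex as a covariate and 0 to 6 with a tumour left out. Without BRAF tumour 1, 2 or 3 the whole table gave 24, 54 and 157 calls, and without SOX2 tumour 1, 2 or 3 it gave 1817, 220 and 442. The cause was not tested, beyond the smaller number of tumours.

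The median log2 fold change of the lymphocyte genes stayed above 0 in every alternative, from 0.58 without SOX2 tumour 3 to 1.53 without BRAF tumour 3. The log2 ratio of summed levels was 0.77 and stayed between 0.59 and 1.07. The ratio to the pan-leukocyte genes reversed from -0.64 to 0.55 with macrophage and monocyte genes as the denominator. With more than 10 counts required, 8 genes in place of 16 were seen in all tumours.

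Signs reversed for Ctla4 with limma (-0.23), upper-quartile scaling (-0.02) and sex as a covariate (-0.08), and with limma for Cd22 (-0.61), Ms4a1 (0.03), Igkc (-1.59) and Jchain (-1.06). With a tumour left out the fold changes ran from -0.43 to 1.18 for Cd3e, -0.24 to 1.62 for Cd247, -0.52 to 1.36 for Trdc, -0.32 to 1.09 for Cd8a, -0.48 to 0.05 for Lck, -0.46 to 1.68 for Zap70, -1.39 to 0.62 for Ctla4, -1.02 to 1.68 for Cd22, -1.01 to 0.82 for Pax5 and -3.29 to 2.79 for Igkc. No paired analysis was possible because the columns are named by mouse and carry no replicate number. Depth limits statements on the B-cell and cytotoxic genes, and the number of tumours limits the rest.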

Other observations

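Of 15 neutrophil and mast cell genes edgeR called 0, 10 at an unadjusted p below 0.05 and a median of 2.55 on the log2 scale, while DESeq2 called 8 and limma 6. S100a9, S100a8 and Mmp9, genes of neutrophils that keratinocytes or macrophages can also express, were the most abundant. Mcpt4, chosen after its values were seen, a mast cell protease, had 1.74, 0 and 1.28 CPM in the BRAF tumours and 9.29, 8.88 and 7.95 CPM in the SOX2 tumours (edgeR adjusted p = 0.127). Of 11 dendritic and Langerhans cell genes, edgeR called Epcam, which tumour epithelium also expresses, with a median of 0.93 and 4 at an unadjusted p below 0.05. The Epcam call held in 7 of 15 alternatives (adjusted p up to 0.127) and in 0 of the 6 fits without a tumour. Itgax and Zbtb46 followed Epcam in level.

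Of 8 tested genes of lymph-node and lymphoid-tissue stroma edgeR called 0, with 1 at an unadjusted p below 0.05, and DESeq2 and limma called 1 each. Ccl21a, Ltb and Cxcl13 were the most abundant. Ccl21a, a chemokine of lymphatic vessels and lymph nodes with near-identical gene copies that make its count uncertain, had 6.68, 0.416 and 7.51 CPM in the BRAF tumours and 1.73, 9.94 and 11.8 CPM in the SOX2 tumours. It was lowest in SOX2 tumour 1 within its group, the tumour with the most Tigit, Jchain and Igkc. Median log2 fold changes of the remaining lists were 1.13 for 9 fibroblast genes, 0.22 for 8 endothelial genes, -0.96 for 12 keratinocyte genes and -2.41 for 6 erythrocyte genes, with 0 called by edgeR in each and 3, 2, 7 and 0 at an unadjusted p below 0.05. DESeq2 called 3, 1, 7 and 0 of these and limma 2, 1, 3 and 0. The most abundant genes were Col1a1, Col3a1 and Col1a2 in fibroblasts, Pecam1, Vwf and Cdh5 in endothelium, Krt1, Krt14 and Krt10 in keratinocytes and Hbb-bs, Hba-a1 and Hba-a2 in erythrocytes.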
